A study of Homo sapiens with 12 samples.

Results

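The insulin-like growth factor (IGF) axis and the imprinted H19 transcript were followed in 2 Ewing sarcoma cell lines engineered to express the AP-1 subunits c-Jun and c-Fos on addition of doxycycline. The members were chosen by gene symbol: the ligands IGF1 and IGF2, the receptor IGF1R, the binding proteins IGFBP2, IGFBP3, IGFBP4, IGFBP5, IGFBP6 and IGFBP7, and H19. They make up 10 of the 58721 genes in the count table, and 9 of them passed the filter on low counts (all but IGFBP3). The list was drawn up with earlier results of these data known. The fall of H19 was among those results, so its response is given as a description without a test, and no p-value below is independent evidence for the list as a group.

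The study compared EW8 and TC71 cells, both established lines carrying a lentiviral Tet-On construct that expresses c-Jun and c-Fos together, grown with vehicle (DMSO) or with doxycycline at 2000 ng/ml for 72 h. The transgenes stood behind the doxycycline-responsive TRE3G promoter, vehicle-treated cells carried them too, and the labels give the genotype of all samples as WT. Each of the 4 groups held 3 libraries (12 altogether), and the labels do not say whether libraries of a group came from separate cultures, so that the p-values measure the spread between these libraries, which may be technical. Doxycycline was given only to cells with the transgenes, so the drug and its transgenes cannot be told apart.

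IGF1 and IGF2 are secreted growth factors that bind the receptor tyrosine kinase IGF1R, which signals through IRS adaptors to PI3K, AKT and the MAP kinases. The IGF-binding proteins hold the ligands in the extracellular space and are cleaved by proteases such as PAPP-A, while IGF2R takes up IGF2 for degradation. IGF2 and H19 are neighbours on chromosome 11p15.5 and are expressed from opposite parental alleles under the control of CTCF bound to a shared imprinting control region. The axis is well known in Ewing sarcoma, where IGF1R signalling is needed for transformation by EWS-FLI1 and IGFBP3 is a known repressed target of the fusion.

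H19 is a spliced, polyadenylated RNA without a protein product, and its first exon holds the hairpin of miR-675. Both mature products are shown, from RefSeq on GRCh38.p14, because this is the part of H19 that yields a defined regulatory molecule. The hairpin lies at chr11:1996759-1996831 on the minus strand, and capitals mark the seed, bases 2 to 8. The seeds of the 2 arms differ.
miR-675-5p: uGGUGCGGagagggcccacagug
miR-675-3p: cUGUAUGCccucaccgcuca
The libraries were made from polyadenylated RNA and the hairpin overlaps H19 exons, so reads there were dropped by the counter. MIR675 had 0 counts in all 12 libraries, which says nothing of the mature miRNA.

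The 250 bases before the RefSeq start (GRCh38.p14, 5′ to 3′ on the strand of the gene) are shown for H19 and for the 3 protein-coding members whose response differed most between the lines. Capitals mark CpG dinucleotides, the sites of DNA methylation.
IGF1R promoter, chr15:98648289-98648538, strand +: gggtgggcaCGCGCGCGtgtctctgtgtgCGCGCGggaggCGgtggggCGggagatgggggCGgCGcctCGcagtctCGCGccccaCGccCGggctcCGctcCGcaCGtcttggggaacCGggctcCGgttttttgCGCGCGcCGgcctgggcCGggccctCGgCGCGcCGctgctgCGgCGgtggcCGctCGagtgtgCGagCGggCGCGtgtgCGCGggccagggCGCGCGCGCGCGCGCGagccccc
IGFBP5 promoter, chr2:216695550-216695799, strand -: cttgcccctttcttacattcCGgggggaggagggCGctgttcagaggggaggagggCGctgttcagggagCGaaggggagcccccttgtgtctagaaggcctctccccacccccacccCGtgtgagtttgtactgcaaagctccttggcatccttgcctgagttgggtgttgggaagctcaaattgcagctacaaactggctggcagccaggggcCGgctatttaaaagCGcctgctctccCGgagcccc
IGFBP6 promoter, chr12:53097417-53097666, strand +: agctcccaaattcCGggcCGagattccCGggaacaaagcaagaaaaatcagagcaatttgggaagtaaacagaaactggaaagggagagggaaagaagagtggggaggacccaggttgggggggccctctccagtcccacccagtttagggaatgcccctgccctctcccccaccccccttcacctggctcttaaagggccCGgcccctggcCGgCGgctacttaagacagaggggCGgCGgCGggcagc
H19 promoter, chr11:2001267-2001516, strand -: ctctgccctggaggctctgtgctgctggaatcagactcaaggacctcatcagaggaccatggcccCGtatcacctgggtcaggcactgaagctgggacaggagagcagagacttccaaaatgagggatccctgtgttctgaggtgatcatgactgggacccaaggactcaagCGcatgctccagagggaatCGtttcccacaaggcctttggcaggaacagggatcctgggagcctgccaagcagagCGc
These windows hold 48, 8, 9 and 4 CpG dinucleotides in the order shown, against a median of 11 over the 35116 promoters of the RefSeq table. IGF1R thus has a CpG-dense start and H19 a CpG-poor one. Methylation was not measured in this series. The table held 11 windows for 8 of the 10 members, with none for IGF2 and IGFBP7. None of the 11 windows, each running from 250 bases before to 50 after the start, held the AP-1 site TGACTCA, the CRE TGACGTCA or 4 GGAA repeats in a row on either strand. These motifs were found in 4.95%, 1.85% and 0.0199% of all promoters, and the letters say nothing of enhancers or of binding.

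Total counts ran from 42860665 to 60853649 per library. JUN and FOS, whose counts include the transgenes, rose with doxycycline by 4.46 and 4.87 (log2) in EW8 and by 5.19 and 7.08 in TC71. TC71 vehicle replicate 1 stood apart from its group: its counts differed from those of the other 2 libraries by a chi-square per gene of 61.7 and 63.9, against 5.4 to 11 for every other pair of replicates. Tests of members that turn on it are given with and without it, as are several of other genes. The sums and shares of binding proteins below include it and are not given without it. All 10 markers of Ewing sarcoma cells were above the floor of 6 counts (3 read pairs) per library in every group. Their levels were not unchanged. At an adjusted p under 0.05 (edgeR), doxycycline lowered 6 of them and raised 2 in EW8, against 5 lowered and 3 raised in TC71. Only the fall of LIPI in EW8 also passed an absolute log2 fold change of 1. The markers of other cells were not all silent. The summed level of 5 endothelial markers went from 7.69 to 8.72 CPM (counts scaled to a fixed library size) with vehicle to 45.6 to 51.0 CPM with doxycycline in EW8, and from 0.0644 to 0.382 CPM to 3.90 to 5.19 CPM in TC71. That of 5 epithelial markers went from 9.72 to 10.2 CPM to 50.7 to 54.9 CPM in EW8 and from 176.5 to 215.3 CPM to 227.1 to 241.2 CPM in TC71. In EW8 with doxycycline most of it was KRT8 and KRT18 (means 31.8 and 20.7 CPM). In TC71 most was KRT18 (means 193.7 CPM with vehicle and 218.1 CPM with doxycycline), while CDH1 and KRT19 were at the floor. The 8 fibroblast markers summed to 165.5 to 180.1 CPM and 140.6 to 150.0 CPM in EW8 and to 270.1 to 309.8 CPM and 284.3 to 297.2 CPM in TC71. These sums hide opposite changes of single genes. In TC71 the mean of COL1A1 rose from 26.1 to 92.8 CPM, and COL1A2 rose from the floor. The TC71 means of PDGFRB, DCN and LUM fell from 59.7 to 22.3, from 7.9 to 2.4 and from 3.7 to 1.2 CPM. In EW8 the mean of PDGFRA rose from 0.84 to 2.48 CPM, while PDGFRB fell from 51.1 to 24.1 CPM and LUM from 0.49 to 0.09 CPM. Among leukocyte markers CD3E was at the floor in all 4 groups, while the list of 6 summed to 65.1 to 80.5 CPM in EW8 and to at most 0.683 CPM in TC71, and 3 hepatocyte markers summed to at most 0.242 CPM in any library. The part of these markers in the results below was not tested. Fewer cells of a type and less RNA per cell cannot be told apart in such bulk samples.

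With doxycycline, IGFBP6 and IGFBP7 rose and IGFBP5 fell in both lines, IGF1R rose past the fold limit in EW8, and IGF1, IGFBP2 and IGFBP4 were called in neither. Calls required an adjusted p under 0.05 (edgeR's quasi-likelihood test, Benjamini-Hochberg over 21013 genes) and an absolute log2 fold change over 1. H19 is left out of these counts. In EW8, IGF1R, IGFBP6 and IGFBP7 were called higher and IGFBP5 lower, which is 3 and 1 of 8 tested members. Of all genes tested, 11.4% were called higher and 3.38% lower in this comparison. In TC71, IGFBP6 and IGFBP7 were called higher and IGFBP5 lower, against 12.3% and 3.67% of all genes. At the adjusted p alone, with no limit on the fold, 3 members were higher and 2 lower in EW8, where 21.9% and 22.0% of all genes were, and 3 were higher and 3 lower in TC71, against 25.1% and 20.4%. Since the list was drawn up with such results known, nothing is read from these shares. The median log2 fold change over the 8 members was 0.16 in EW8 and 0.10 in TC71, where IGF2 enters with its fitted value though all its libraries were at 0, beside -0.03 and 0.00 over all genes tested.

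**Figure D1:**
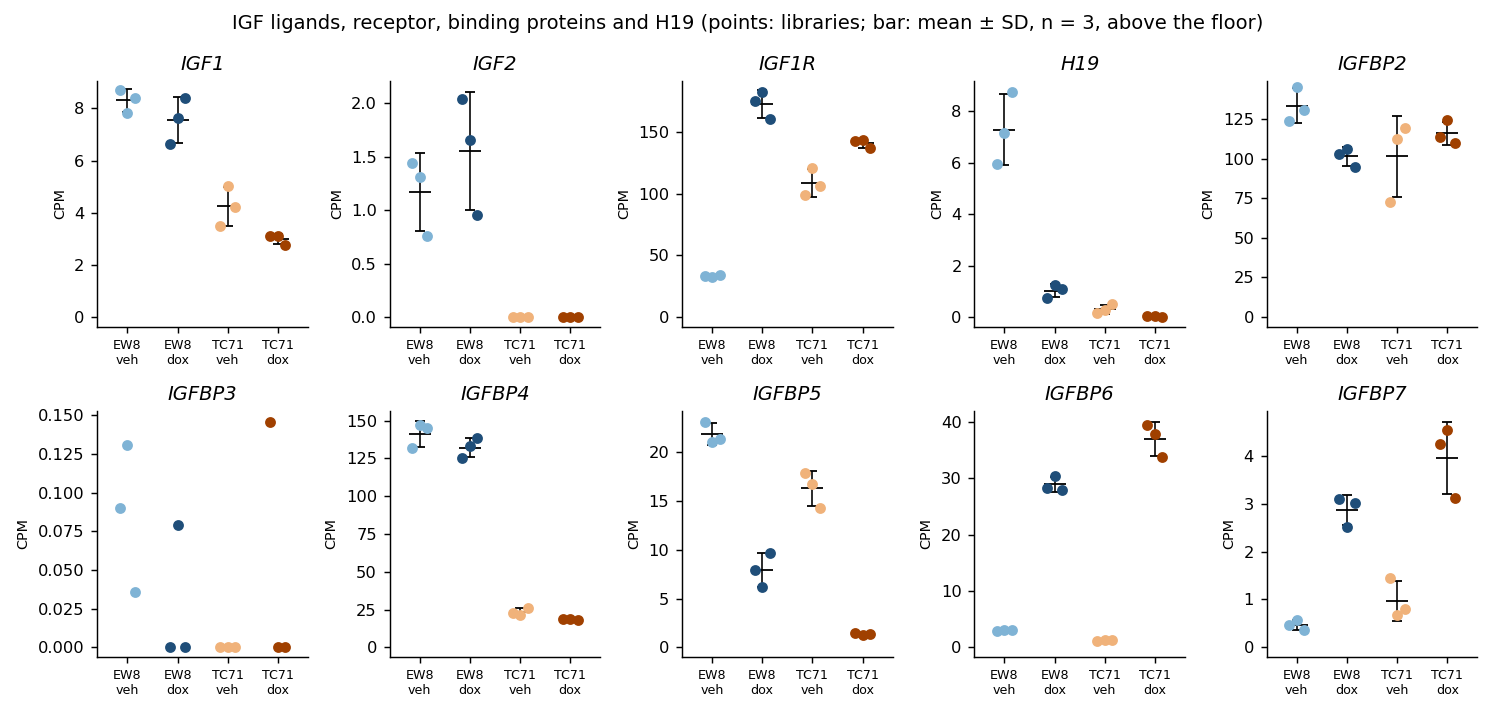
CPM of the 10 members in each of the 12 libraries, 1 panel per gene with its own linear axis. Points are libraries and the horizontal bar with whiskers is the mean ± SD of 3 libraries, drawn where the group was above the floor. IGF1R, IGFBP6 and IGFBP7 lay higher and IGFBP5 and H19 lower in all doxycycline libraries than in the vehicle libraries of the same line.

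IGF1, the ligand at chromosome 12 (102395874 to 102481744 of hg38, minus strand), was detected in every library. Its levels were 8.71, 7.82 and 8.39 CPM in EW8 with vehicle and 6.64, 7.63 and 8.40 CPM with doxycycline, ranges that overlap. In TC71 they were 3.49, 5.01 and 4.23 CPM with vehicle and 3.13, 3.11 and 2.78 CPM with doxycycline, so that each doxycycline library lay below each vehicle library. The EW8 log2 fold change was -0.14 (SE 0.16, adjusted p = 0.529) and the TC71 one -0.50 (SE 0.17, adjusted p = 0.0207), where the fall passed the adjusted p but not the limit on the fold. It was -0.70 (adjusted p = 0.00137) without TC71 vehicle replicate 1, but missed the adjusted p without TC71 vehicle replicate 2 (-0.36, adjusted p = 0.119), without TC71 doxycycline replicate 3 (-0.45, adjusted p = 0.0744) and with the TC71 libraries fitted alone (-0.50, adjusted p = 0.0656). The responses did not differ detectably between the lines (difference -0.36, SE 0.23, adjusted p = 0.319). These counts cover little of the gene, since 82.4% of its exon bases are shared with HELLPAR on the other strand and reads there were dropped. HELLPAR had between 0.982 and 2.60 CPM.

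IGF2, the fetal ligand on chromosome 11 (2129112 to 2149603, minus strand), separated the lines. It had 64, 60 and 42 counts in EW8 with vehicle and 114, 84 and 42 with doxycycline, or 1.44, 1.31 and 0.754 CPM against 2.04, 1.66 and 0.959 CPM. The EW8 ranges overlapped and the log2 fold change of 0.42 (SE 0.45) missed the adjusted p (0.506). All 6 TC71 libraries had 0 counts, so no response can be given there, and IGF2 was at least 10.7-fold lower in TC71 than in EW8 under vehicle. Of its exon bases 75.0% are shared with other genes, among them INS-IGF2 and the antisense gene IGF2-AS, and reads there were dropped.

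IGF1R, the receptor kinase on chromosome 15 (98648539 to 98964530, plus strand), whose CpG-dense start is shown above, responded far more in EW8 than in TC71. In EW8 it went from 33.0, 32.4 and 34.5 CPM to 175.1, 182.4 and 160.8 CPM. In TC71 it went from 98.9, 121.2 and 105.9 CPM to 142.4, 143.7 and 136.7 CPM. The groups did not overlap within either line, and EW8 began lowest and ended highest. The EW8 log2 fold change was 2.38 (SE 0.07, adjusted p = 1.27e-14), a 5.19-fold rise. The TC71 one was 0.37 (SE 0.07, adjusted p = 0.000228), a 1.30-fold rise that did not reach the fold limit. Without TC71 vehicle replicate 1, its lowest library in that group, the TC71 value was 0.23 (adjusted p = 0.00419). The difference of the responses was -2.0 (SE 0.10, adjusted p = 1.14e-10). IGF1R has no exon base in common with another gene.

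IGFBP2, on chromosome 2 (216632828 to 216664436, plus strand), binds both ligands and was among the most abundant members in both lines. It stood at 124.1, 145.4 and 130.6 CPM in EW8 with vehicle and at 103.2, 105.9 and 94.9 CPM with doxycycline, without overlap. The log2 fold change was small (-0.40, SE 0.13, adjusted p = 0.0153) and missed the adjusted p without any 1 of the 3 doxycycline libraries or without vehicle replicate 2 or 3 (-0.38 to -0.31, adjusted p = 0.0649 to 0.139). In TC71 the vehicle libraries held 72.4, 112.6 and 119.2 CPM and the doxycycline libraries 114.0, 124.3 and 110.1 CPM. The low value is that of replicate 1, the library that stands apart. The TC71 log2 fold change was 0.20 (SE 0.13, adjusted p = 0.227), and -0.08 (adjusted p = 0.395) without that library. The difference between the responses was 0.59 (SE 0.18, adjusted p = 0.0249), and 0.27 (adjusted p = 0.0329) without it. It missed the adjusted p (0.0682 to 0.175) without any 1 of 6 other libraries: EW8 doxycycline replicates 1, 2 and 3, EW8 vehicle replicates 2 and 3, and TC71 doxycycline replicate 2.

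IGFBP3, the main carrier of IGFs in blood (chromosome 7, 45912245 to 45921874, minus strand), was at the floor in all 4 groups. Its counts were 4, 6 and 2 in EW8 with vehicle, 0, 4 and 0 with doxycycline, 0 in each TC71 vehicle library, and 6, 0 and 0 in TC71 with doxycycline. No fold is given for it, and a change was not detectable at this depth.

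IGFBP4, an inhibitory binding protein and the substrate of the protease PAPP-A (chromosome 17, 40443461 to 40457731, plus strand), differed far more between lines than with doxycycline. EW8 had 131.6, 147.3 and 144.9 CPM with vehicle and 125.5, 132.9 and 138.3 CPM with doxycycline, which overlap (log2 fold change -0.10, SE 0.07, adjusted p = 0.316). TC71 had 22.9, 21.5 and 26.3 CPM with vehicle and 18.6, 19.1 and 18.1 CPM with doxycycline, a fall of all libraries by 0.34 on the log2 scale (SE 0.08, adjusted p = 0.00146). The difference of these responses missed the adjusted p (-0.24, SE 0.11, adjusted p = 0.124). It passed without TC71 vehicle replicate 1 (-0.39, adjusted p = 0.00689) and without EW8 doxycycline replicate 1 (-0.39, adjusted p = 0.0365).

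IGFBP5, a matrix-associated binding protein whose gene lies beside IGFBP2 on chromosome 2 (216672105 to 216695525, minus strand), fell in both lines. In EW8 it went from 23.1, 21.1 and 21.4 CPM to 7.98, 6.21 and 9.66 CPM, and in TC71 from 17.9, 16.8 and 14.3 CPM to 1.45, 1.29 and 1.41 CPM. The EW8 log2 fold change was -1.46 (SE 0.14, adjusted p = 1.27e-07) and the TC71 one -3.56 (SE 0.17, adjusted p = 4.41e-12). The fall was larger in TC71, by -2.09 on the log2 scale (SE 0.22, adjusted p = 1.60e-06). IGFBP2 and IGFBP5 are neighbours, yet only IGFBP5 was called in either line.

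IGFBP6, a binding protein with a marked preference for IGF2 (chromosome 12, 53097436 to 53102345, plus strand), rose more than any other member in both lines. It went from 2.89, 2.99 and 3.11 CPM to 28.4, 30.5 and 28.0 CPM in EW8 and from 1.03, 1.32 and 1.22 CPM to 39.5, 37.9 and 33.7 CPM in TC71. TC71 thus began below EW8 and ended above it, with no overlap at either end. The EW8 log2 fold change was 3.27 (SE 0.11, adjusted p = 5.17e-14) and the TC71 one 4.95 (SE 0.13, adjusted p = 4.99e-16), which is 9.65-fold and 30.9-fold. The difference was 1.68 (SE 0.17, adjusted p = 7.63e-07). TC71, where IGFBP6 rose most, had no count of IGF2.

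IGFBP7, a secreted protein with weak affinity for IGFs (chromosome 4, 57030773 to 57110385, minus strand), rose from low levels. EW8 had 0.474, 0.567 and 0.359 CPM with vehicle and 3.10, 2.51 and 3.01 CPM with doxycycline. TC71 had 1.45, 0.676 and 0.796 CPM with vehicle and 4.24, 4.54 and 3.12 CPM with doxycycline. The EW8 log2 fold change was 2.63 (SE 0.32, adjusted p = 2.59e-06) and the TC71 one 2.03 (SE 0.30, adjusted p = 1.83e-05), and their difference missed the adjusted p (-0.60, SE 0.43, adjusted p = 0.399). IGFBP7 shares 18.9% of its exon bases with POLR2B and IGFBP7-AS1.

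Over the 3 members called in the difference of the responses (IGF1R, IGFBP5 and IGFBP6), 2 of 8 tested were lower and 1 was higher in TC71, H19 left out, where 7.05% of all genes were called in either direction. IGFBP5 and IGFBP6 moved the same way in both lines and further in TC71. IGF1R moved further in EW8.

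**Figure D2:**
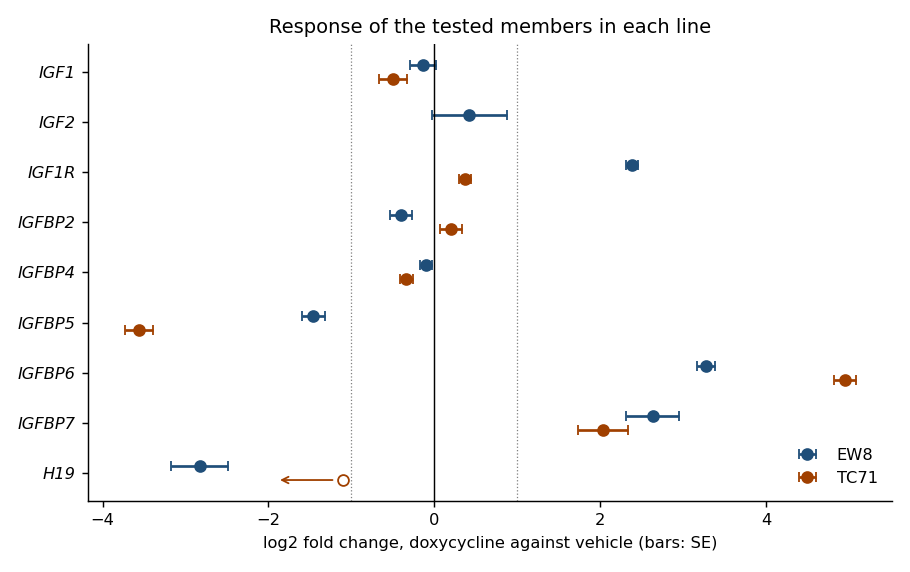
Log2 fold change of doxycycline against vehicle for the 9 tested members in EW8 (blue) and TC71 (brown), with bars of 1 SE and dotted lines at the fold limit of 1. The open symbol with an arrow is a bound for H19 in TC71, at least 2.15-fold lower, and IGF2 has no TC71 value because all its libraries were at 0.

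To compare genes, CPM was divided by the kb of exon that a gene does not share with another, a level per length. On this scale the 6 binding proteins together held 98.3 ± 5.78 (SD, n = 3) in EW8 with vehicle and 106.0 ± 2.59 with doxycycline, and 36.1 ± 5.39 and 63.1 ± 3.94 in TC71. In EW8 the libraries ran from 92.1 to 103.0 with vehicle and from 103.0 to 108.0 with doxycycline. In TC71 each doxycycline library (58.6 to 66.0) lay above each vehicle library (30.2 to 40.7). The make-up changed in both lines. IGFBP6 took 2.27% ± 0.106 of the sum in EW8 with vehicle and 20.3% ± 0.785 with doxycycline, and 2.46% ± 0.203 and 43.6% ± 1.53 in TC71, where it took the largest share of the 6 in each doxycycline library. The share of IGFBP4 went from 65.3% ± 0.875 to 56.7% ± 1.78 in EW8 and from 29.9% ± 4.26 to 13.4% ± 0.548 in TC71. IGFBP2 went from 28.5% ± 0.953 to 20.1% ± 1.29 and from 58.2% ± 6.90 to 38.6% ± 1.44. IGFBP5 went from 3.64% ± 0.405 to 1.22% ± 0.268 and from 7.54% ± 1.96 to 0.359% ± 0.0373. These are shares of transcripts, not of secreted protein.

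**Figure D3:**
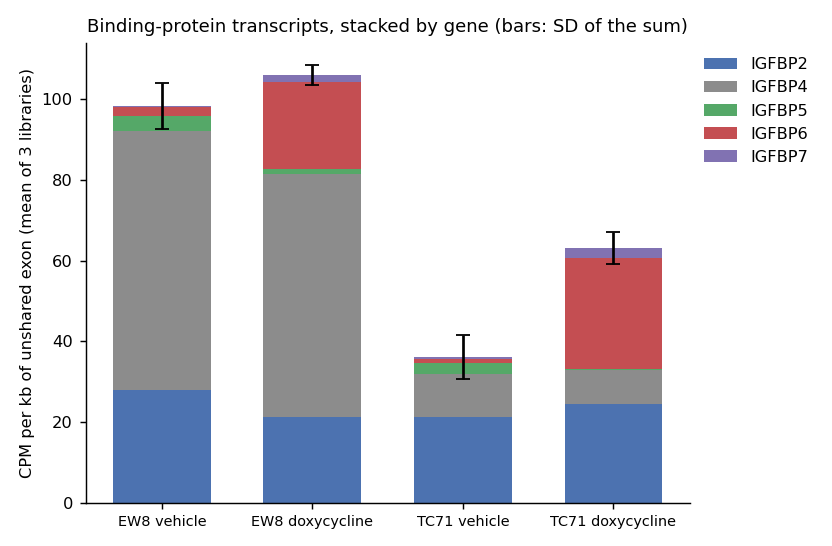
Level per length (CPM per kb of unshared exon, mean of 3 libraries) of the binding-protein genes, stacked for each of the 4 groups, with the SD of the sum. IGFBP3 is too low to be seen. IGFBP6 grew from 2.27% to 20.3% of the stack in EW8 and from 2.46% to 43.6% in TC71.

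The ligands, the receptor and H19 are given on the same scale for vehicle-treated cells. In EW8, IGF1 stood at 5.81 ± 0.313, H19 at 2.71 ± 0.519, IGF1R at 2.39 ± 0.0758 and IGF2 at 0.670 ± 0.209 (SD, n = 3). H19 and IGF1R did not differ beyond their spread. In TC71, IGF1R stood at 7.79 ± 0.817 and IGF1 at 2.97 ± 0.530, and IGF1 did not differ beyond its spread from IGFBP5 at 2.66 ± 0.292. IGF2 had 0 counts there, and H19 stood at 0.114 ± 0.0673. Divided by the whole exon length, IGF1 was 1.02 ± 0.0550 in EW8 and 0.523 ± 0.0932 in TC71, and IGF2 was 0.167 ± 0.0523 in EW8, so their place in the order depends on how the shared exons are treated.

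H19, on chromosome 11 (1995176 to 2001470, minus strand), was lower with doxycycline in both lines. It had 264, 328 and 486 counts in EW8 with vehicle and 42, 63 and 47 with doxycycline, or 5.95, 7.15 and 8.73 CPM against 0.752, 1.25 and 1.07 CPM. In TC71 it had 8, 16 and 26 counts with vehicle, 0.153, 0.258 and 0.505 CPM, and 2, 2 and 0 with doxycycline. The groups did not overlap in either line. As a description, EW8 fell by 2.83 on the log2 scale (SE 0.34). TC71 fell by at least 2.15-fold from its vehicle mean, since its doxycycline libraries were at the floor. The lowest TC71 vehicle library, with 8 counts, was itself just above the floor. The EW8 doxycycline libraries still held more H19 than the TC71 vehicle libraries. Of its exon bases 7.4% are shared with other genes.

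The members were also compared between TC71 and EW8 under vehicle. IGF1R (log2 difference 1.71, SE 0.07, adjusted p = 6.08e-13) and IGFBP7 (1.06, SE 0.33, adjusted p = 0.0100) were called higher in TC71. IGFBP4 (-2.59, SE 0.08, adjusted p = 4.67e-15), IGFBP6 (-1.32, SE 0.13, adjusted p = 8.68e-08) and IGF2 were called lower. As a description, H19 was lower too (-4.58, SE 0.38). IGF2 and H19 passed the filter on low counts through their EW8 libraries, which favours a lower value in TC71. With H19 left out, 2 of 8 tested members were called higher and 3 lower, IGF2 among them. Of all genes, 30.6% were called in either direction, and nothing is read from these counts. The call of IGFBP7 was lost without TC71 vehicle replicate 1 (0.77) or without EW8 vehicle replicate 3 (0.92). IGF1 (-0.97, SE 0.16, adjusted p = 4.04e-05), IGFBP2 (-0.39, SE 0.13, adjusted p = 0.0107) and IGFBP5 (-0.42, SE 0.14, adjusted p = 0.0126) were lower below the fold limit. IGF1 passed that limit without EW8 vehicle replicate 2 (-1.01) or TC71 vehicle replicate 2 (-1.10). IGFBP5 missed the adjusted p without EW8 vehicle replicate 1, EW8 doxycycline replicate 1 or TC71 vehicle replicate 3 (0.0501 to 0.0857). The IGFBP2 difference was -0.09 (adjusted p = 0.258) without TC71 vehicle replicate 1, and missed the adjusted p (0.0576 to 0.0724) without EW8 vehicle replicate 2 or EW8 doxycycline replicate 1 or 2.

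Genes that act on or beside the axis were followed in 8 lists of 99 genes, of which 77 were tested. Of these 77 genes 10 were called higher and 7 lower in EW8 and 9 higher and 4 lower in TC71, with median log2 fold changes of -0.08 and -0.01. The shares of all genes called are those given above.

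Among the receptors and adaptors, 8 of 10 genes were tested, 0 were called in EW8 by edgeR or by DESeq2 (5 had an unadjusted p under 0.05), and IGF2R was the gene edgeR called in TC71. DESeq2 called IGF2R too, and called INSRR lower in TC71, a gene that edgeR's filter on low counts left out (12, 2 and 0 counts with vehicle, 0 in each doxycycline library) and that is named here after its values were seen. IGF2R, the scavenger receptor of IGF2, went from 62.8, 57.5 and 66.3 CPM to 107.1, 104.1 and 97.6 CPM in EW8 (0.73 on the log2 scale, SE 0.06, adjusted p = 3.11e-08) and from 161.4, 183.7 and 178.9 CPM to 380.7, 388.6 and 379.1 CPM in TC71 (1.13, SE 0.06, adjusted p = 3.89e-11). Without TC71 vehicle replicate 1 the TC71 value was 1.00 and no longer over the limit. INSR, the insulin receptor, gave -0.13 in EW8 (adjusted p = 0.388) and 0.32 in TC71 (adjusted p = 0.0307). IRS1, an adaptor that carries the IGF1R signal, gave -0.47 in EW8 (adjusted p = 0.00797) and -0.30 in TC71 (adjusted p = 0.0890). IRS2, its close relative, fell in both lines (-0.47, adjusted p = 0.000475, and -0.89, adjusted p = 3.60e-07). IRS2 passed the limit in TC71 (-1.08) without vehicle replicate 1. GRB14, an adaptor that inhibits receptor signalling, gave -0.52 in EW8 (adjusted p = 0.0338) and 0.99 in TC71 (adjusted p = 0.000510), and its responses differed (1.51, SE 0.28, adjusted p = 0.000693).

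Of 10 genes for proteases that cleave the binding proteins and for their inhibitors, 8 were tested. In each line edgeR called 4 higher and 0 lower, with median log2 fold changes of 1.49 in EW8 and 1.45 in TC71. Of all genes, 11.4% and 12.3% were called higher and 3.38% and 3.67% lower. Nothing about the list is read from counts this small. PAPPA2 in both lines and ADAM28 in EW8 had 0 counts with vehicle, so they could only be called higher. The medians include their fitted values against the floor. They also include ADAM28 in TC71 and HTRA3 in EW8, where all libraries were at the floor. At an unadjusted p under 0.05 with no limit on the fold, 0 were lower in either line, and DESeq2 called 4 higher in EW8, 3 in TC71 and 0 lower. PAPPA, which encodes the IGFBP4 protease PAPP-A, went from 187.0, 180.9 and 191.7 CPM to 331.9, 339.3 and 334.9 CPM in EW8 (0.85, SE 0.06, adjusted p = 1.56e-09) and from 35.7, 40.6 and 43.3 CPM to 253.0, 256.1 and 248.7 CPM in TC71 (2.66, SE 0.06, adjusted p = 2.34e-16). STC1, which encodes an inhibitor of PAPP-A, went from 9.43, 7.13 and 9.52 CPM to 30.3, 32.3 and 30.1 CPM in EW8 (1.83, SE 0.10, adjusted p = 5.72e-11) and from 5.19, 4.78 and 6.02 CPM to 110.9, 108.4 and 110.5 CPM in TC71 (4.37, SE 0.11, adjusted p = 5.09e-16). PAPPA and STC1 therefore rose together, both further in TC71 (differences 1.82 and 2.54, adjusted p = 4.65e-11 and 7.06e-10). STC2, a relative of STC1 in the same list, is named here after its values were seen. It gave 0.18 in EW8 (adjusted p = 0.676) and -0.22 in TC71 (adjusted p = 0.395). In TC71 with vehicle its mean was 39.5 CPM, against 5.33 CPM for STC1. PAPPA2, the related protease of IGFBP3 and IGFBP5, had 0 counts in all vehicle libraries and rose with doxycycline to a level at least 8.0-fold higher in EW8 and in TC71 at least 5.03-fold higher. ADAM28 and ADAM12 were called in EW8 from near the floor, and the call of ADAM12 was lost without EW8 doxycycline replicate 1 (1.53) or EW8 vehicle replicate 2 (1.63). The responses of ADAM12 did not differ detectably between the lines (-1.71, adjusted p = 0.203). Without TC71 vehicle replicate 1 their difference was called (-2.18, adjusted p = 0.0381). CTSD, a lysosomal protease, was called in TC71 at the limit itself (1.00), and most alternatives took it below.

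Of the other binding proteins and ligands, 4 of 8 were tested. HTRA1, a serine protease with an IGFBP-like domain, went from 1.35, 1.40 and 1.51 CPM to 66.4, 64.0 and 67.9 CPM in EW8 (5.54, SE 0.17, adjusted p = 1.17e-13), and from 0 in each TC71 vehicle library to 0.630, 1.36 and 0.910 CPM, at least 8.86-fold. ESM1, once named IGFBP-related, had 0 counts with vehicle and 24.0, 24.5 and 22.9 CPM with doxycycline in EW8, at least 191-fold, and was at the floor in TC71. IGFBPL1 fell in EW8 (-2.0, SE 0.35, adjusted p = 0.000137). In TC71 it was called lower (-1.54, SE 0.58, adjusted p = 0.0386) between means of 0.295 CPM with vehicle and 0.101 CPM with doxycycline, near the floor. The TC71 groups overlapped, and the call was lost without any 1 of 3 libraries.

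**Figure D4:**
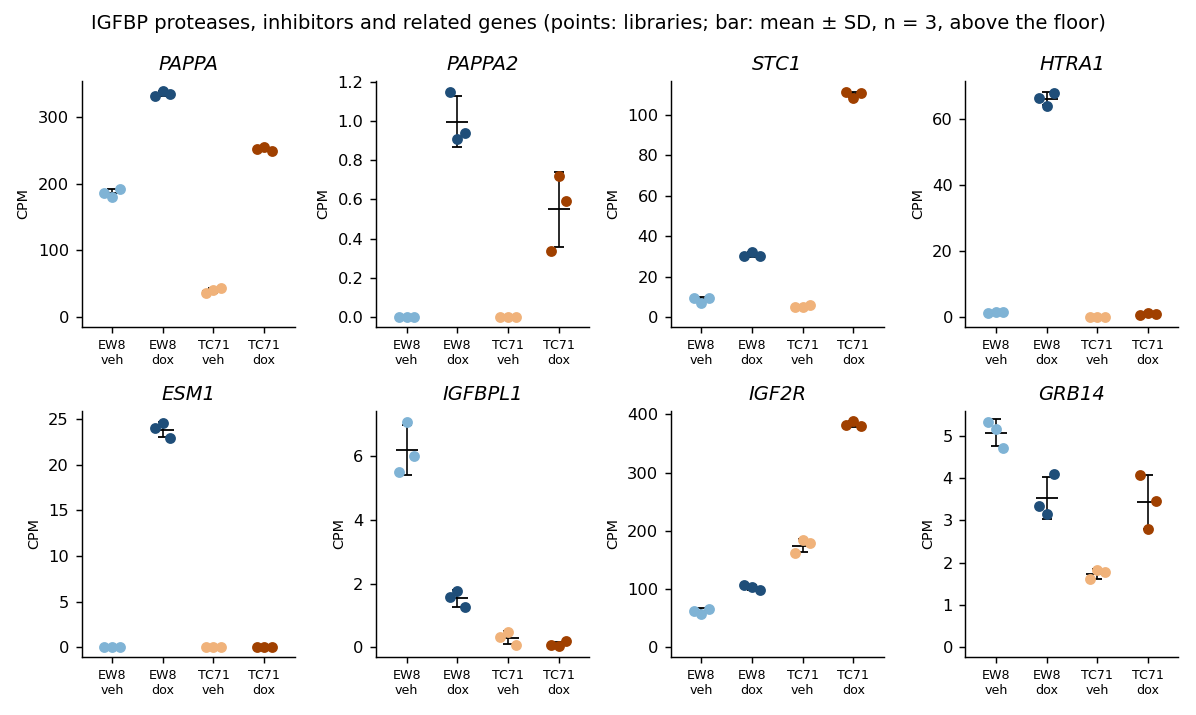
CPM of 8 genes that cleave, inhibit or resemble the binding proteins or take up IGF2, in each library, 1 linear axis per panel. Points are libraries and bars the mean ± SD of 3 libraries, drawn above the floor. PAPPA and STC1 were higher in every doxycycline library of both lines, and ESM1 rose in EW8 while TC71 stayed at the floor.

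In the PI3K and AKT arm downstream, 1 of 16 tested genes was called in EW8, PIK3R3, a regulatory subunit (-1.11, SE 0.09, adjusted p = 1.80e-08), and 0 in TC71 by edgeR or DESeq2, with medians of -0.03 and 0.04. At the adjusted p with no limit on the fold, 4 were higher and 5 lower in EW8 and 7 and 4 in TC71, where 21.9% and 22.0%, and 25.1% and 20.4%, of all genes were. At an unadjusted p under 0.05 these counts were 4 and 6 in EW8 and 7 and 5 in TC71. PIK3CB, a catalytic subunit, gave -0.22 in EW8 and 0.88 in TC71, a difference of 1.09 (SE 0.10, adjusted p = 4.27e-07) that fell to 0.95 without TC71 vehicle replicate 1, to 0.94 without EW8 doxycycline replicate 1 and to 1.00 without EW8 vehicle replicate 3, each time no longer over the limit. Among 4 genes for proteins that bind IGF2 mRNA or act with them, LIN28B was called lower in EW8 (-1.05, SE 0.08, adjusted p = 4.69e-09) and gave -0.87 (adjusted p = 3.03e-08) in TC71, where 0 were called by either tool and 4 had an unadjusted p under 0.05. It missed the limit without 1 of 3 EW8 libraries (-0.97 to -0.98).

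Of 18 neighbours of H19 and IGF2 on 11p15.5, 10 were tested. Of these, edgeR called 2 higher in EW8, 3 in TC71 and 0 lower in either, as did DESeq2 for the lower ones. Of all genes, 11.4% and 12.3% were called higher and 3.38% and 3.67% lower. With so few genes called lower at large, 0 of 10 is not read as a result. At an unadjusted p under 0.05, 2 were lower in EW8 and 0 in TC71, and NAP1L4 (-0.17, adjusted p = 0.0138) was the one that passed the adjusted p. PHLDA2, an imprinted growth restrainer, went from 0.541, 0.610 and 1.01 CPM to 8.13, 9.80 and 6.90 CPM in EW8 (3.49, SE 0.24, adjusted p = 1.19e-09) and from 4.43, 6.38 and 7.69 CPM to 24.6, 29.4 and 24.7 CPM in TC71 (2.09, SE 0.19, adjusted p = 5.77e-08). SLC22A18, a transporter imprinted in the same cluster, rose by 2.01 in EW8 (SE 0.26, adjusted p = 5.21e-06) and by 2.67 in TC71 (SE 0.29, adjusted p = 4.68e-07). Between them and H19, CDKN1C, an imprinted cell-cycle inhibitor, gave -1.52 (SE 0.74, adjusted p = 0.110) and -1.12 (SE 0.94, adjusted p = 0.363), and KCNQ1OT1, the antisense RNA of that domain, -0.90 (SE 0.36, adjusted p = 0.0510) and -0.04 (SE 0.38, adjusted p = 0.956). CDKN1C was called lower in EW8 when the lines were fitted alone (-1.47, adjusted p = 0.00236), without the filter on low counts (-1.53) and without TC71 vehicle replicate 1 (-1.47), and KCNQ1OT1 without EW8 doxycycline replicate 1 (-1.21, adjusted p = 0.0255). Closer to H19, MRPL23 gave -0.08 (adjusted p = 0.538) and -0.10 (adjusted p = 0.388), CD81 0.08 (adjusted p = 0.368) and 0.49 (adjusted p = 4.27e-06), TSSC4 0.33 (adjusted p = 0.0113) and 0.28 (adjusted p = 0.0285), and LSP1 had at most 0.436 CPM. MRPL23-AS1, TNNT3, TNNI2, SYT8, TH, ASCL2, KCNQ1 and IGF2-AS did not pass the filter.

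**Figure D5:**
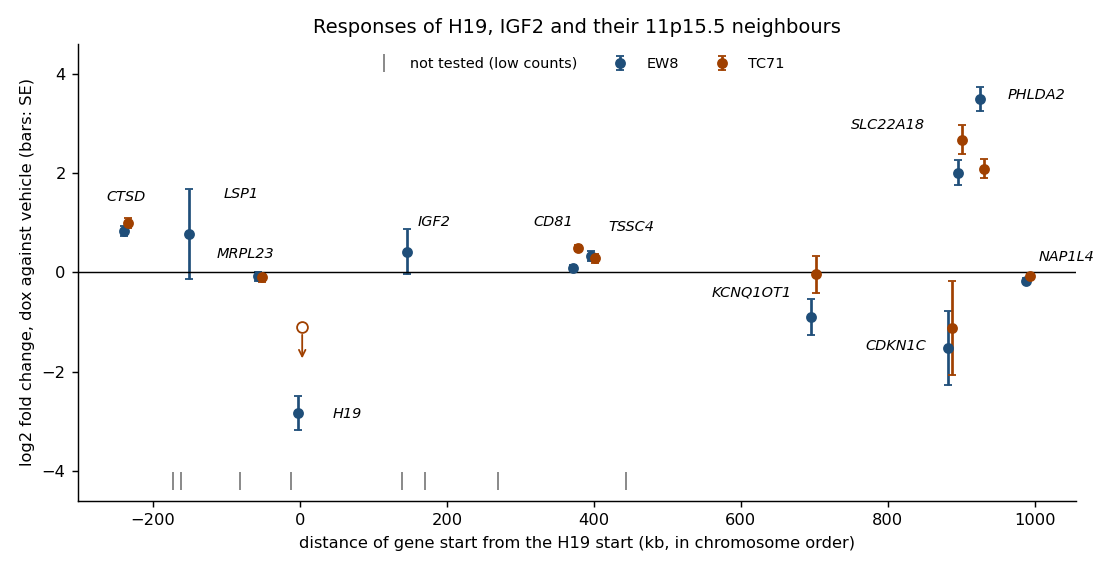
Log2 fold change with doxycycline of the tested genes around H19 on 11p15.5, against the distance of each gene start from the H19 start in kb, with bars of 1 SE. The open symbol with an arrow is the bound for H19 in TC71, LSP1 is shown for EW8 alone because its TC71 vehicle libraries were at the floor, and ticks at the bottom mark genes too low to test. H19 lay at -2.83 in EW8, and PHLDA2 and SLC22A18, 928.0 and 898.3 kb away, at 3.49 and 2.01.

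Imprinted genes elsewhere moved in both directions. Of 17 tested, 2 were called higher and 2 lower in EW8 and 1 and 1 in TC71. The shares over all genes were 11.4% higher and 3.38% lower in EW8 and 12.3% and 3.67% in TC71. Nothing about the list is read from counts this small. MEG3, a maternally expressed RNA, went from 6.34, 4.56 and 4.63 CPM to 17.9, 17.4 and 20.5 CPM in EW8 and from 1.38, 0.644 and 0.427 CPM to 3.42, 4.21 and 4.53 CPM in TC71 (1.85 and 2.32, adjusted p = 3.60e-06 and 1.72e-06). MEST fell in EW8 (-1.37, SE 0.18, adjusted p = 4.06e-06) and in TC71 (-1.11, SE 0.35, adjusted p = 0.0139), where the call was lost in 4 alternatives. PEG10 fell by 1.14 in EW8 (SE 0.07, adjusted p = 3.29e-10) and gave -0.82 in TC71 (adjusted p = 2.58e-08). MAGEL2 rose in EW8, from 1.80, 2.05 and 2.16 CPM to 26.2, 25.6 and 23.4 CPM (3.64, SE 0.23, adjusted p = 3.88e-10), while TC71 had 0.344, 0.773 and 0.660 CPM with vehicle and 0.291, 0.908 and 0.592 CPM with doxycycline (difference -3.64, SE 0.40, adjusted p = 2.44e-06).

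Of 11 tested regulators of imprinted loci, 2 were called lower and 0 higher in each line by edgeR and DESeq2, and 0 (EW8) and 1 (TC71) were higher at an unadjusted p under 0.05. At the adjusted p alone 10 were lower in each, beside 22.0% and 20.4% of all genes, with medians of -0.44 and -0.50. TET1, which oxidises methylcytosine, fell by 1.60 in EW8 (SE 0.12, adjusted p = 2.13e-09) and by 1.25 in TC71 (SE 0.11, adjusted p = 2.61e-08). DNMT3B, a DNA methyltransferase, gave -0.66 (adjusted p = 2.20e-05) and -1.03 (adjusted p = 1.04e-07). CTCF, which binds the H19 control region, gave -0.40 (SE 0.06, adjusted p = 2.65e-05) and -0.56 (SE 0.06, adjusted p = 4.20e-07). CTCFL, its germline paralog, stood at 83.9 to 101.5 CPM in TC71 with vehicle and at 0.436 to 1.08 CPM in EW8, and fell by 3.01 in EW8 (SE 0.45, adjusted p = 2.10e-05).

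The pattern of IGFBP6, the member with the largest response in TC71, was most like that of FOS (Pearson's r of log2(CPM + 1) = 1.00), CTTNBP2NL (0.999) and WDFY2 (0.998) over the 12 libraries. H19 was most like PPP1R3A (0.992), CORT (0.988) and EFEMP1 (0.987). IGFBP3 did not pass the filter and was not compared. These points share lines and treatments, and 433 genes had an r over 0.95 with IGFBP6 and 175 with H19, so the order among them is a description of these 12 libraries.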

How the data were processed

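Polyadenylated RNA of 12 cell-line samples was sequenced as read pairs from stranded libraries. The authors checked reads with FastQC, mapped them to hg38 with STAR and counted them over GENCODE release 29 exons with featureCounts 2.0.1. The deposited values are raw whole-number counts for each gene. Per the file headers, each mate was counted as a read, strand was not used, and reads on several genes or places were left out, which removes much of IGF1 and IGF2.

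Groups followed the sample labels. CPM used TMM-scaled library sizes. The filterByExpr filter kept 21013 genes holding 99.95% of counts. All 12 libraries entered 1 quasi-likelihood fit (edgeR 4.0.16, R 4.3.3) with 4 contrasts: the response to doxycycline within each line, the TC71 response minus the EW8 one, and TC71 against EW8 under vehicle. This fit recovered known changes in simulated counts. The changed genes there were well counted, rose and fell in equal number and changed in EW8 doxycycline alone. All genes had the same spread and no library stood apart, so the simulation does not cover members with low counts. A group with at most 6 counts in each library was at the floor. A fold against it is the mean of the other group over the floor, without that group's spread. It is a bound that covers counting error alone, as PCR copies are not separate molecules.

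Members and lists were chosen with earlier results of these data known. All members are named. Of 8 companion lists, up to 6 called genes each are named by the larger response, plus INSR, IGF2R, IRS1, IRS2, CTCF and the 11p15.5 neighbours. For likeness the 3 genes with the highest r are named for H19 and the member with the largest TC71 response. Alternatives were DESeq2's size factors, library size alone, no filter, DESeq2 1.42.0, each line alone, a replicate block, no limit on the fold, and leaving out each library.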

Additional observations from a re-analysis of the deposited data

Results flagged for a closer look

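Each result in this section was picked out because the responses of the 2 lines differed by the test of the difference itself (TC71 minus EW8 on the log2 scale, edgeR, adjusted p under 0.05 over all genes tested). Among the members these were IGF1R (-2.0), IGFBP5 (-2.09), IGFBP6 (1.68) and, under the fold limit, IGFBP2 (0.59, or 0.27 without TC71 vehicle replicate 1). The IGFBP2 difference missed the adjusted p without any 1 of 6 other libraries (0.0682 to 0.175).

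Among the receptors, adaptors and PI3K subunits, the difference was 0.41 for IGF2R, 1.51 for GRB14, -0.43 for IRS2, 0.53 for PIK3R3 and 1.09 for PIK3CB. GRB14 and PIK3CB moved in opposite directions in the 2 lines, each at an adjusted p under 0.05 in both. Among the protease genes it was 1.82 for PAPPA and 2.54 for STC1. Among the 11p15.5 neighbours of H19 it was -1.41 for PHLDA2 and 0.41 for CD81, among imprinted genes elsewhere -3.64 for MAGEL2 and 0.32 for PEG10, and among their regulators 2.58 for CTCFL, whose level under vehicle differed by 6.77 (log2) between the lines. The FOS response, transgene included, was also larger in TC71, by 2.21 on the log2 scale, and its part in these differences was not tested.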

How the results depend on the processing

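No member changed direction with an adjusted p under 0.05 in any alternative. The member counts in this section include H19. They were 3 higher and 2 lower in EW8 in every alternative that kept the fold limit. With no limit on the fold, 4 members were lower in TC71 and 2 higher in the difference, and 7 were lower in TC71 against EW8 under vehicle. With each line fitted alone, 1 member was called lower in TC71, because H19 did not pass the filter there. Leaving out 1 library at a time gave 1 to 2 members higher in TC71 under vehicle.

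Companion genes with no limit on the fold numbered 22 higher and 27 lower in EW8, 26 and 21 in TC71, 16 and 9 in the difference, and 33 and 29 between the lines under vehicle. Those lower in TC71 numbered 2 with each line alone and 2 to 5 without 1 library, 2 being the count without TC71 doxycycline replicate 1. DESeq2 called 5 lower in the difference, and the cause was not tested.

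Same-numbered vehicle and doxycycline libraries did not deviate together (r from -0.07 to 0.08), so the replicate numbers were not taken as pairs. With the replicate block, members called numbered 3 higher and 2 lower in EW8 and 2 and 2 in TC71, and IGFBPL1 (-1.46, adjusted p = 0.0577) and CTSD (1.00) lost their TC71 calls. It changed no other call of a named gene. Depth limits IGFBP3, IGF2 and H19 in TC71, where counts were at or near 0. Another scaling of the libraries shifted the median gene by at most -0.095 (log2), for library size alone in TC71.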
